A study of Mus musculus with 18 samples.

Results

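The comparison described here set the small RNAs of the neuronal fraction against those of the microglial fraction in brains of wild-type (WT) mice. A feature entered where 2 or more of the 6 libraries concerned held 5 or more counts of it, which left 5166 of the 203513 features in the table. Features were Ensembl transcripts, piRNAs, copies of tRNA genes and mature miRNAs, and the type given in the table was used to sort features into RNA classes. The study sequenced small RNA of 18 libraries from mice at 10 months of age, either WT or carrying an expanded CAG tract on both Atxn2 alleles (Atxn2-CAG100-KIN, here KIN), on a C57BL/6 background. Both groups compared here, with 3 libraries each, came from the WT littermates and received no treatment. Per the study's methods, a dissociated brain was passed over magnetic beads that bound CD11b, which gave the microglia, and then over beads for ACSA-2, which gave the astrocytes. Other non-neuronal cells were next bound through a cocktail of biotinylated antibodies and through CD31, and the neurons were what flowed through. The neuronal fraction was thus chosen by what it lacked, and all fractions were bulk samples in which fewer cells of a type and less RNA per cell cannot be told apart. The labels give a replicate number for each library but do not say that the number marks a brain, so p-values measure the spread between these libraries, whatever its source.

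MiRNAs are short RNAs that direct Argonaute proteins to messenger RNAs, mainly through the seed near their 5′ end. Small nucleolar RNAs (snoRNAs) guide the methylation (C/D box) or the pseudouridylation (H/ACA box) of ribosomal and spliceosomal RNA, small nuclear RNAs (snRNAs) form the spliceosome, and tRNAs and their fragments come from the translation machinery. Microglia are the resident macrophages of the brain and share many miRNAs with other myeloid cells, whereas neurons express the imprinted snoRNA genes of the Prader-Willi domain and several brain-enriched miRNAs.

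The neuronal libraries held 1211118 to 1956491 counts and the microglial libraries 3472418 to 3667244, so low features were measured less precisely in neurons. Levels are in CPM, counts put on a common library size, scaled by TMM factors unless stated otherwise, and they are relative amounts within a library. Values of 3 libraries are always given in the order of replicates 1, 2 and 3. Calls required an adjusted p no larger than 0.05 (edgeR's quasi-likelihood test with Benjamini-Hochberg adjustment over everything tested) together with a log2 fold change of 1 or more in either direction. In the fit of single features 1446 of 5166 were called (28.0%), with 695 higher in neurons (13.5%) and 751 lower (14.5%), and the groups did not overlap for 46.3% of the features. The median log2 fold change, neurons over microglia, was −0.15. Neuronal replicate 2 stood apart from the other neuronal libraries in tRNA and in oligodendrocyte RNA, and microglial replicate 2 held less neuronal RNA than the other microglial libraries, so results that rest on either are given with and without it.

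Mature miRNAs named below for their difference between the fractions, and those whose seed was shared by miRNAs called in opposite directions, are printed first, because pairing with messenger RNAs runs mainly through the seed. Of the 343 mature miRNAs tested, 283 matched a RefSeq entry of GRCm38.p6 by name, and those printed are RefSeq's. Capitals mark bases 2 to 8, the seed. The first set was higher in neurons, and miR-9-5p and miR-9-3p are the arms of one hairpin that is encoded at 3 loci, one of them on chromosome 3 (chr3:88215613-88215635 and chr3:88215652-88215673, plus strand).
miR-9-5p: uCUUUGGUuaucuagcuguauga
miR-9-3p: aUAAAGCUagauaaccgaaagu
miR-451a: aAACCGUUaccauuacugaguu

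The second set was lower in neurons, and miR-142a-3p is shown with it because it marks blood-derived cells. It holds miR-223-3p from chromosome X (chrX:96242884-96242905, plus strand), miR-146a-5p from chromosome 11 (chr11:43374435-43374456, minus strand) and the neighbours miR-23a-3p and miR-27a-3p from chromosome 8 (chr8:84208563-84208583 and chr8:84208727-84208747, plus strand).
miR-455-3p: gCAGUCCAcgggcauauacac
miR-339-5p: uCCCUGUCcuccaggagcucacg
miR-29a-5p: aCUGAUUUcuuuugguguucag
miR-322-5p: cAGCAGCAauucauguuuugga
miR-223-3p: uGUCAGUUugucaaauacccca
miR-146a-5p: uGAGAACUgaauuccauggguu
miR-23a-3p: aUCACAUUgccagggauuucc
miR-27a-3p: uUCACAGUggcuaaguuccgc
miR-142a-3p: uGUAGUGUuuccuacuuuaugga

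The third set holds 3 seeds, each with members called in both directions, printed in 3 runs that begin with miR-100-5p (chr9:41531437-41531458, plus strand), miR-384-5p (chrX:105344332-105344354, minus strand) and miR-181c-5p (chr8:84178924-84178945, minus strand).
miR-100-5p: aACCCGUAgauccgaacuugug
miR-99a-5p: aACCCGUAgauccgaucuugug
miR-99b-5p: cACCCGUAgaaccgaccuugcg
miR-384-5p: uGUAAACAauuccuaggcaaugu
miR-30a-5p: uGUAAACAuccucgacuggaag
miR-30e-5p: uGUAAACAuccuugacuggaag
miR-181c-5p: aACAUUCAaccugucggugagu
miR-181d-5p: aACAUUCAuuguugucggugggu
miR-181a-5p: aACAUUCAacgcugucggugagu

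The classes took different shares of the libraries. Mature miRNAs made up 0.964%, 1.93% and 1.08% of the counts of the neuronal libraries and 5.17%, 5.09% and 5.99% of the microglial libraries, or 1.33% ± 0.53 against 5.42% ± 0.50 (mean ± SD, n = 3 each), a 4.09-fold lower share in neurons. Every neuronal library lay far below every microglial library. MiRNA hairpin genes showed the same order with 1.47% ± 0.15 against 3.72% ± 0.23. The tRNA genes took 2.94%, 10.6% and 4.54% in neurons and 9.37%, 11.3% and 8.53% in microglia, where neuronal replicate 2 fell inside the microglial range. Mitochondrial tRNAs took 0.238%, 4.03% and 0.555% against 1.59%, 1.68% and 1.40%, where neuronal replicate 2 lay above the microglial range. In the other direction, mitochondrial rRNA took 0.810% ± 0.18 in neurons and 0.306% ± 0.044 in microglia, and the class called misc_RNA, which holds the 7SL and Y RNAs, took 0.712% ± 0.33 against 0.210% ± 0.030. Reads of the 18S ribosomal RNA gene Rn18s-rs5 took 4.61% ± 0.50 against 2.86% ± 0.77. Of 21 shares compared, 6 were higher and 5 lower in neurons with no overlap between the groups. Each of the 11 reached p = 0.1 in an exact two-sided permutation test, the smallest p that 3 against 3 libraries allow, and 0.191 after adjustment over the 21 shares. The shares of protein-coding transcripts (4.11% ± 0.31 against 3.82% ± 0.67) and of snoRNAs (28.2% ± 3.9 against 23.9% ± 1.2) overlapped between the groups.

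**Figure D1:**
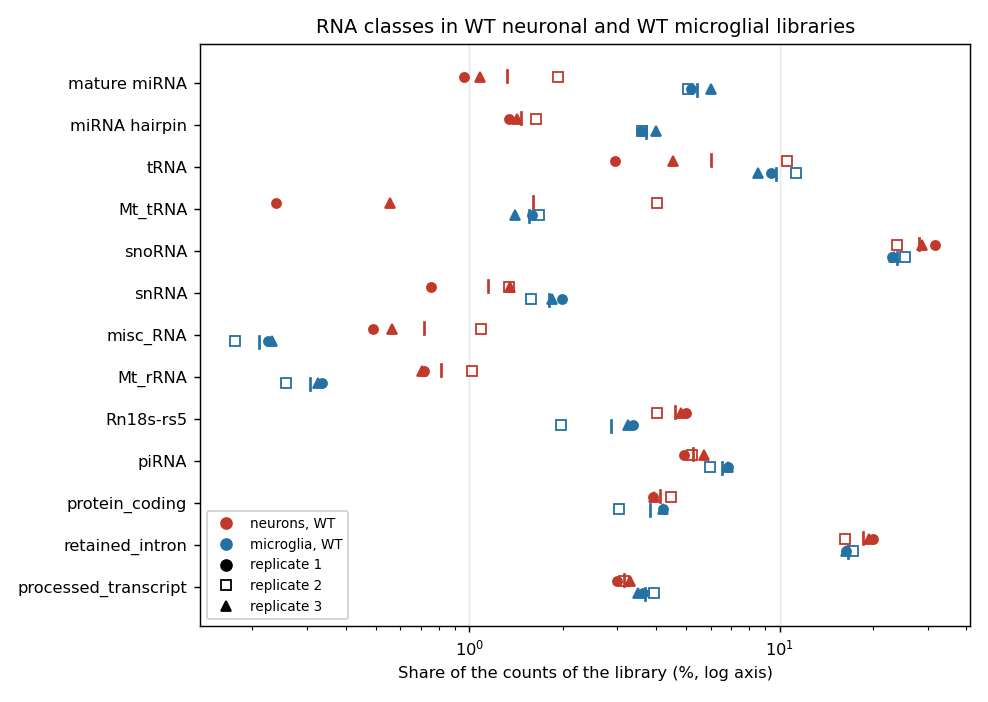
Share of each RNA class in the counts of the library (percent, log axis) for 3 WT neuronal and 3 WT microglial libraries, with a tick at the mean of each group. Mature miRNAs and hairpins lie to the left in neurons without overlap, while neuronal replicate 2 lies with the microglia for tRNA (10.6%) and above them for mitochondrial tRNA (4.03%).

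The choice of scale mattered for every class. With TMM factors taken from the mature miRNAs alone, which asks how a feature moved against the bulk of the miRNAs, the median of all features went from −0.15 to +1.85, and 3079 features were called, 2855 higher and 224 lower. Directions below are those of the main scale, in which most features of the library are the reference. On the miRNA scale the median turned from negative to positive for hairpins, for snoRNAs outside the Prader-Willi domain, for spliceosomal snRNAs, for tRNA isodecoders, for mitochondrial tRNAs and for 4 of the marker lists, the miRNAs typical of neurons (−0.13 to 1.69) and of epithelia (−0.92 to 0.93), and the astrocyte and endothelial genes, each with 2 tested members.

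The labels of both fractions were checked against marker genes and marker miRNAs. Transcripts were summed into genes and tRNA gene copies into isodecoders for this purpose, and in that fit 1529 of 5833 genes and isodecoders were called (26.2%), with 757 higher in neurons (13.0%) and 772 lower (13.2%), and the groups did not overlap for 44.0%. All 12 microglia genes listed were called lower in neurons, with a median log2 fold change of −6.04 beside −0.01 over everything tested in that fit. For 11 of them no neuronal library exceeded 3 counts. These 11 passed the filter on microglial counts alone, so they could hardly have been called higher, and their fold is only a bound. With these set to their bound the median was −2.63. P2ry12, the purinergic receptor of resting microglia, had 0 counts in each neuronal library and 22.9, 22.6 and 22 CPM in the microglial libraries, at least 12.7-fold lower in neurons when its floor of 3 counts per library is taken. Csf1r, the receptor for the cytokine that keeps microglia alive, stood at 0.712, 0.93 and 1.2 CPM against 32.2, 26.6 and 24.4 CPM. The list summed to 2.48 to 4.09 CPM in neurons and 132 to 182 CPM in microglia, on the scale of library totals. The defining genes of microglia were thus at or near 0 in the neuronal fraction.

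Of the neuron genes 3 of 8 tested, with 13 listed, were called higher in the neuronal fraction, and all were scarce in both. That was 37.5% called, beside 26.2% in the fit of summed genes. For 3 of the 8 tested, 1 group had at most 3 counts in each library, so their fold is only a bound. Tubb3, a neuronal tubulin, had 8.54, 4.19 and 7.81 CPM against 0.29, 0.403 and 0.806 CPM, Map2, a dendritic microtubule protein, 14.9, 8.84 and 12.6 against 2.32, 0.806 and 2.42, and Stmn2, which regulates axonal microtubules, 11.4, 4.65 and 3.6 against 0.87, 0.403 and 1.07. Of the other 5 tested, 2 had a negative log2 fold change, the lowest −1.76, and no neuron gene was called lower (edgeR, also 0 at an unadjusted p under 0.05, and 0 by DESeq2). The list summed to 34.7 to 52.8 CPM of the library total in neurons, 2.88 to 17.7 in microglia and 9.55 to 32.8 in the WT astrocyte libraries, so the lowest neuronal library lay just above the highest astrocyte library. The 3 called genes had 32 to 61 counts over the neuronal libraries and 5 to 19 over the microglial ones.

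MiRNAs typical of neurons gave a mixed answer. Of 12 tested, 16 being listed, 6 had a positive and 6 a negative log2 fold change. Called higher were 2, both arms of miR-9, which is abundant in neural progenitors, neurons and astrocytes. The share called was 16.7%, beside 63.6% of the mature miRNAs, and the median was −0.13, beside −2.56 for that class. On the miRNA scale 6 of the list were higher and 0 lower. MiR-9-3p had 421, 571 and 519 CPM in the neuronal libraries and 22.7, 10.2 and 26.6 CPM in the microglial libraries, a log2 fold change of 4.66 ± 0.46 (SE, adjusted p = 0.00035). MiR-9-5p had 492.7, 1481 and 921 CPM against 188, 90.2 and 217 CPM (2.55 ± 0.49, adjusted p = 0.00401). Both arms were lowest in microglial replicate 2 and did not overlap between the fractions. The WT astrocyte libraries held 6301 CPM of miR-9-5p and 1109 CPM of miR-9-3p on the scale of library totals (means of 3 libraries). MiR-124-3p, the most abundant miRNA of mature neurons in the textbook account, had 39.2, 143 and 106 CPM against 100.1, 46 and 89.4 CPM, and its log2 fold change of 0.29 ± 0.51 did not pass (adjusted p = 0.695). The astrocyte libraries held 1543 CPM of it on the scale of library totals, above every neuronal library. MiR-128-3p, another brain-enriched miRNA, had 6.27, 46.3 and 10.1 CPM against 43.7, 23.9 and 51.9 CPM (−0.90 ± 0.69, adjusted p = 0.354). The list summed to 1035, 2582 and 1658 CPM of the library total in neurons, 423, 162 and 459.7 in microglia and 7468, 13250.0 and 8662 in astrocytes, so every neuronal library lay above the microglia and below the astrocytes.

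Markers of other cells moved with the fractions. The choroid plexus genes Ttr, which encodes a thyroid hormone carrier, Enpp2, a secreted lysophospholipase, and Kl, the FGF23 co-receptor, were all called higher in neurons. Ttr had 292, 546 and 249 CPM against 7.25, 10.1 and 8.06 CPM (5.42 ± 0.52, adjusted p = 3.71e-05), and Enpp2 had 139, 328 and 124 CPM against 6.96, 10.5 and 5.37 CPM. Only 3 of the 7 genes of the list passed the filter, and its sum was 409.1 to 992 CPM of the library total in neurons, about 15 in each microglial library and 17.3 to 47.7 in astrocytes. Of the miRNAs typical of choroid plexus and other epithelia 2 of 13 were called, both lower (miR-34b-5p at −3.47 and miR-34c-5p at −3.05). That was 15.4%, beside 63.6% of the mature miRNAs, and the median of −0.92 lay above the −2.56 of that class. On the miRNA scale 3 were higher and 0 lower, with a median of 0.93.

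Red blood cell RNA was higher in neurons as well. Haemoglobin beta (Hbb-bs) had 58.4, 21.4 and 44.4 CPM in neurons and 0.58, 0 and 0.537 CPM in microglia. The 4 tested erythroid genes of 5 listed were all called higher, beside 26.2% called in the fit of summed genes. None of the 4 exceeded 3 counts in a microglial library, so they passed the filter on neuronal counts alone and could only come out higher. Their folds are bounds, and with each set to its bound the median was 3.87 in place of 6.09. MiR-451a, which is made in erythroid cells by Argonaute 2 without Dicer, had 113, 253 and 60.4 CPM against 16.4, 23.5 and 20.4 CPM (2.82 ± 0.55, adjusted p = 0.00443), and the 4 entries of miR-486a and miR-486b, another erythroid miRNA with 2 near-identical hairpins, were called higher too. Summed over the list, erythroid genes came to 48.1 to 139.5 CPM of the library total in neurons and 0 to 1.64 in microglia. In the same neuronal libraries the choroid plexus list summed to 409.1 to 992 CPM, and the neuron genes only to 34.7 to 52.8 CPM. Lists differ in length, so these sums do not give cell numbers. The word neurons in this text names the fraction, and a level higher there is not by itself a trait of neurons. The part of red blood cells and of choroid plexus in the features below was not tested.

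Oligodendrocyte RNA was far higher in neuronal replicate 2 than in the other neuronal libraries. Oligodendrocyte genes summed to 8.26, 85.9 and 10.5 CPM of the library total in neurons and 8.06, 6.62 and 8.45 in microglia. MiRNAs typical of oligodendrocytes summed to 4.95, 123 and 0.655 CPM of the library total in neurons and 33.7, 34.8 and 37.4 in microglia. Mbp, the myelin basic protein, had 0, 52.1 and 4.2 CPM against 2.61, 4.43 and 2.69 CPM and was not called (adjusted p = 0.0841). None of the 4 oligodendrocyte miRNAs was called (edgeR, 0 at an unadjusted p under 0.05, 0 by DESeq2), whereas 3 were called lower in neurons once neuronal replicate 2 was left out, with a median of −4.29 in place of 0.08. Vascular miRNAs were lower in neurons in 4 of 6 cases, near the share of their class (66.7% called beside 63.6% of the mature miRNAs). Among them was miR-126a-3p, which lies in the endothelial gene Egfl7, at 4.7, 20.4 and 11.9 CPM against 165, 247 and 187 CPM. Astrocyte and endothelial genes had 2 tested members each and no call (edgeR, 0 at an unadjusted p under 0.05, 0 by DESeq2), and neutrophil genes had no tested member, with 0 CPM in neurons and 1.15 to 3.00 CPM of the library total in microglia.

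**Figure D2:**
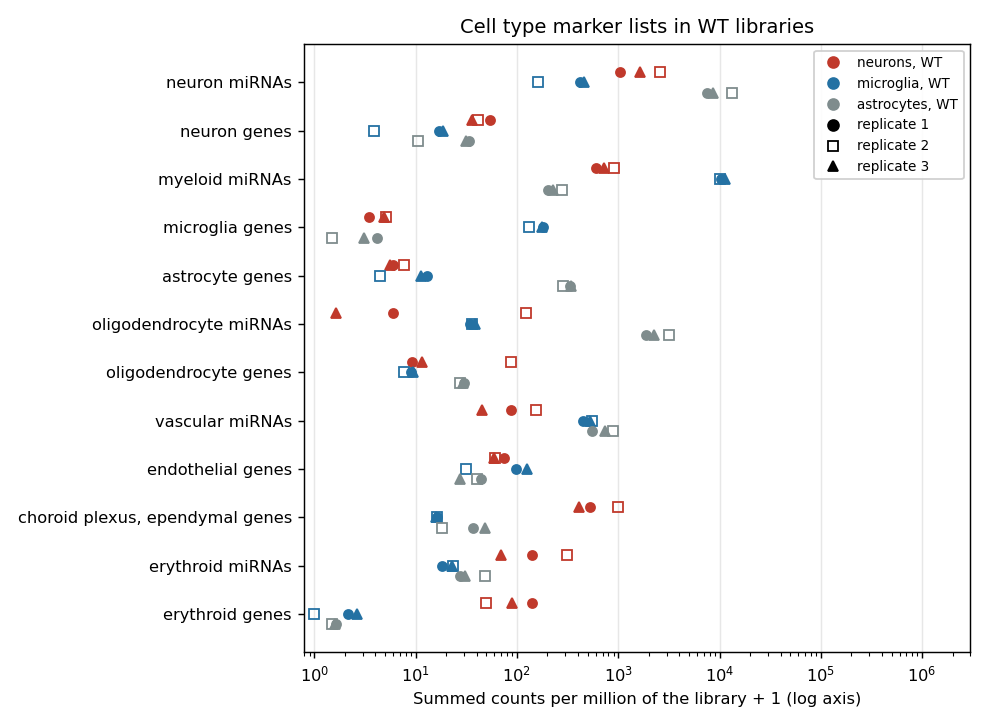
Summed level of each marker list (CPM of the library total plus 1, log axis) in the 3 WT neuronal, microglial and astrocyte libraries. Microglia genes and myeloid miRNAs lie highest in microglia, choroid plexus and erythroid lists lie highest in neurons, and oligodendrocyte miRNAs reach 123 in neuronal replicate 2 against at most 4.95 in the other neuronal libraries.

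Mature miRNAs were the class with the largest share of calls among those with at least 100 tested features. Of 343 tested, 20 were higher and 198 lower in neurons (63.6% called beside 28.0% of all features), the groups did not overlap for 257, and the median log2 fold change was −2.56. For 107 of them one group had at most 3 counts in each library, so their fold is only a bound, and with these set to their bound the median was −1.28. Only 8 were higher without microglial replicate 1 and 11 without microglial replicate 3, and 156 to 212 were lower without any 1 library. Scaled to the miRNAs themselves, 62 were higher and 93 lower with a median of −0.65. Depth differed as well, with 11675 to 37782 mature miRNA counts in a neuronal library and 176629 to 219755 in a microglial one. Of the tested miRNAs 39 had no count in any neuronal library. Those 39 passed the filter on microglial counts alone and could only come out lower. Part of the lean to lower was thus fixed by the filter and the depth.

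Myeloid miRNAs were among those that fell most. MiR-146a-5p, which dampens signalling through Toll-like receptors and NF-kB, had 73.6, 131 and 75.5 CPM in neurons and 5877, 7198 and 6466 CPM in microglia, a log2 fold change of −6.12 ± 0.37 (adjusted p = 4.32e-05). It made up 0.76% ± 0.04 of the mature miRNA counts of the neuronal libraries and 11.3% of those of the microglial libraries. MiR-223-3p, a regulator of granulocytes and macrophages, had 0.783, 6.02 and 1.89 CPM against 384, 428 and 499 CPM (−7.10 ± 0.63, adjusted p = 0.000169). MiR-142a-3p, which is found throughout the blood lineage, had 28.2, 147 and 93.1 CPM against 2501, 2792 and 2649 CPM (−4.88 ± 0.56). Each of these stayed lower on the miRNA scale, at −4.14, −5.25 and −2.96. Within the list of myeloid miRNAs 6 of 8 tested were lower and 1 was higher (87.5% called beside 63.6% of the mature miRNAs). The higher one was miR-150-5p, best known from lymphocytes, with 319, 333 and 375 CPM in neurons and 104, 98.6 and 109 CPM in microglia (1.72 ± 0.32, adjusted p = 0.00356). MiR-155-5p, a miRNA of activated macrophages, was not called (21.9, 27.8 and 14.5 CPM against 9.49, 14.7 and 10.3 CPM, adjusted p = 0.157).

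The largest falls by the rule for naming were of miRNAs that are not on the myeloid list apart from miR-223-3p and miR-146a-5p. MiR-455-3p had 0, 2.31 and 0.629 CPM in neurons and 419, 514 and 475 CPM in microglia (−8.63 ± 0.69, adjusted p = 0.000123). MiR-339-5p was at the floor in neurons and at 195, 181 and 187 CPM in microglia, at least 100.1-fold lower in neurons. MiR-23a-3p had 10.2, 34.7 and 20.1 CPM against 1908, 2032 and 2087 CPM (−6.51 ± 0.50). Its neighbour miR-27a-3p, read from the same primary transcript, was at the floor in neurons and at 96.7, 121 and 119 CPM in microglia, at least 59.8-fold lower. MiR-322-5p, from an X-linked cluster, had 0.783, 3.7 and 0.629 CPM against 125, 155 and 168 CPM (−6.28 ± 0.63), and miR-29a-5p had 0, 2.78 and 0 CPM against 118, 135.8 and 132 CPM. Apart from miR-23a-3p, these miRNAs were at or near 0 in the neuronal libraries. All 8 named here or above as the largest falls, and the 5 named as the largest rises, were called in each of the 6 fits that left out a single library.

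On the higher side, 5 miRNAs met the rule for naming, namely both arms of miR-9, miR-100-5p, miR-451a and miR-150-5p. MiR-100-5p, encoded beside let-7a-2 and miR-125b, had 109.7, 161 and 55.3 CPM against 14.1, 15.1 and 13.3 CPM (2.94 ± 0.48, adjusted p = 0.00191). The other 15 called higher were scarcer, and those given next were chosen after their values were seen. Both arms of miR-296, from an imprinted cluster next to Gnas, were among them, with miR-296-5p at 12.5, 12 and 15.1 CPM against 1.44, 2.81 and 1.36 CPM (2.81 ± 0.50, adjusted p = 0.0030). MiR-335-5p, from the imprinted gene Mest, had 21.2, 76.9 and 28.3 CPM against 7.48, 10.5 and 8.69 CPM (2.25 ± 0.56, adjusted p = 0.0144).

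**Figure D3:**
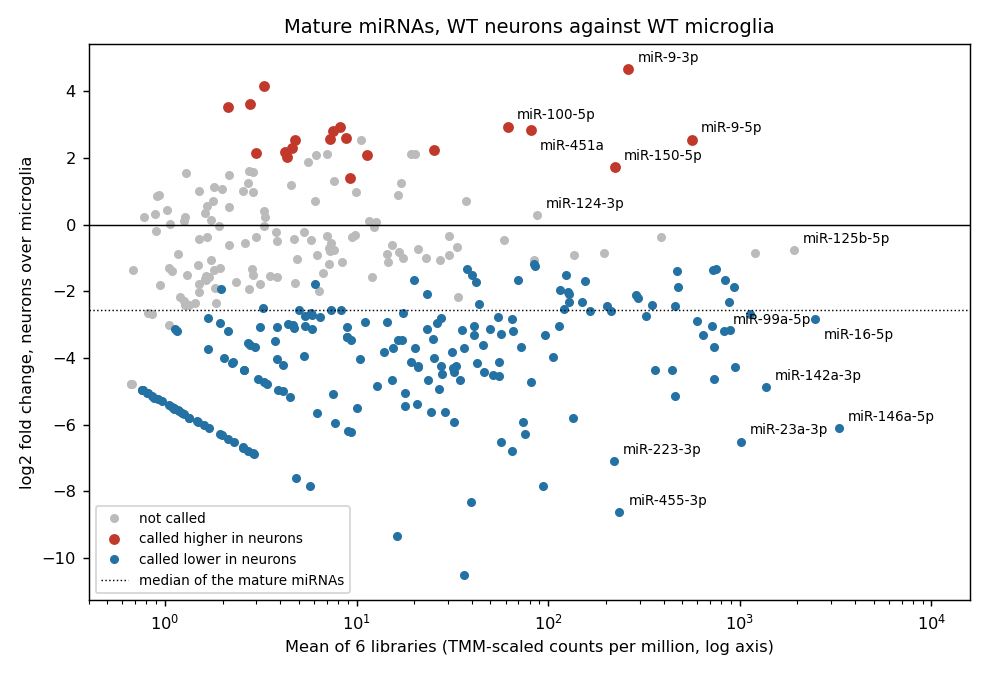
Log2 fold change of each tested mature miRNA, neurons over microglia, against its mean level in the 6 libraries (TMM-scaled CPM, log axis). Most points lie below 0 around the dotted median of −2.56, the 20 called higher are led by miR-9-3p at 4.66, and the line of points at the lower left holds miRNAs with no count in neurons, whose fold is only a bound.

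Members of a shared seed mostly moved one way, as did the class, with 198 of 343 mature miRNAs lower and 20 higher. Whether a shared seed added to that lean was not tested. Among 43 seeds shared by at least 2 tested miRNAs, 29 had members called lower and none higher, 3 had members called higher and none lower, and 3 had both. Of the let-7 and miR-98 family, with seed GAGGUAG, 77.8% were called, beside 63.6% of the mature miRNAs. The family had 7 of 9 members lower and none higher (edgeR, 0 higher at an unadjusted p under 0.05, 0 by DESeq2). It ranged from let-7i-5p, at 33.7, 38.9 and 26.4 CPM against 670.3, 698 and 686 CPM (−4.37 ± 0.35), to let-7b-5p, at 436, 344 and 236 CPM against 424, 441 and 455 CPM (−0.38 ± 0.33, adjusted p = 0.418). Let-7c-5p had an adjusted p of 0.0451 but a log2 fold change of −0.85, under the size required. On the miRNA scale let-7i-5p stayed lower (−2.35) while let-7b-5p and let-7c-5p turned higher (1.69 and 1.21), so members of one family took different shares of the miRNA pool in the fractions.

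The seeds with members called in both directions are those printed above, a grouping made after the values were seen. For seed ACCCGUA, miR-100-5p was higher in neurons while miR-99a-5p, with 103, 236 and 145 CPM against 1348, 1557 and 1560.1 CPM, was lower (−3.20 ± 0.37, adjusted p = 0.000475). MiR-99b-5p was lower as well (−1.95 ± 0.39), though its change on the miRNA scale was 0.02. For seed GUAAACA, the brain-expressed miR-384-5p was higher at 7.83, 32.9 and 4.4 CPM against 2.01, 3.16 and 2.44 CPM (2.59 ± 0.73, adjusted p = 0.0265), a call that held in 2 of the 6 fits that left out a library. The 5 members of the miR-30 family were all lower, from −2.74 for miR-30b-5p to −1.65 for miR-30c-5p. For seed ACAUUCA, miR-181d-5p was higher at 14.1, 22.2 and 18.9 CPM against 4.03, 4.56 and 4.35 CPM (2.09 ± 0.43, adjusted p = 0.00613), and miR-181c-5p, its neighbour on chromosome 8, was higher too (1.39 ± 0.45), a call lost in every fit without 1 library. The far more abundant miR-181a-5p was lower, with 316, 540.7 and 418 CPM against 964, 1174 and 1097 CPM (−1.34 ± 0.31), a direction that turned on the miRNA scale (0.67).

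The composition of the miRNA pool differed in its leading members. MiR-125b-5p took the first place in neurons with 11.4% ± 1.7 of the mature miRNA counts and the fourth in microglia with 4.20% ± 0.10. MiR-9-5p took 7.57% ± 1.9 against 0.291% ± 0.13, and let-7c-5p 7.49% ± 2.9 against 2.69% ± 0.14. MiR-16-5p took 5.10% ± 0.69 against 7.46% ± 0.38. These shares do not depend on how much of the library was miRNA.

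Of the miRNAs of the imprinted Dlk1-Dio3 domain, a large cluster on chromosome 12 that is expressed from the maternal chromosome and mainly in brain, 106 were listed and 20 tested. Of those tested 10.0% were called, beside 63.6% of the mature miRNAs. Called higher were 2, miR-376b-3p with 4.7, 9.26 and 10.7 CPM against 0.863, 1.05 and 2.17 CPM (2.55 ± 0.58, adjusted p = 0.00977) and miR-154-3p (3.54 ± 0.91, adjusted p = 0.017), which was at the floor in microglia and at least 4.35-fold higher in neurons. None was lower (edgeR, 0 at an unadjusted p under 0.05, 0 by DESeq2), and the median was 1.09. That pattern leaned on neuronal replicate 2, since without it 14 were tested, 1 was higher, 2 were lower and the median was −0.11.

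Hairpin genes, counted from reads left after the mature miRNAs had been placed, gave 20 higher and 123 lower of 245 tested (58.4% called beside 28.0% of all features), with a median of −1.75. On the miRNA scale they gave 58 higher and 55 lower with a median of +0.15, so their direction turned. The count of higher hairpins was 8 without microglial replicate 1 and 10 without microglial replicate 3. The Mir9-3 hairpin on chromosome 7 (chr7:79155012-79155101, GRCm39, plus strand) had 98.7, 185 and 156 CPM against 15, 3.86 and 11.1 CPM (3.86 ± 0.56, adjusted p = 0.00113) and Mir9-1 on chromosome 3 76.8, 164 and 135 CPM against 15.2, 6.67 and 19.3 CPM (3.18 ± 0.52). Mir455 on chromosome 4 had 0, 2.78 and 0.629 CPM against 287, 373 and 346 CPM (−7.94 ± 0.72), and Mir23a on chromosome 8 7.05, 15.7 and 9.43 CPM against 940.2, 1023 and 975 CPM (−6.48 ± 0.44).

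Several of the named long transcripts hold a small RNA in an exon. The lincRNA C130071C03Rik, whose exon holds Mir9-2, had 72.9, 185 and 119 CPM against 11.8, 5.26 and 14.9 CPM (3.55 ± 0.54), and 4833445I07Rik, which holds Mir191 and Mir425, 17.2, 37.5 and 32.7 CPM against 253, 332 and 317 CPM (−3.36 ± 0.42). The retained-intron transcripts of A330023F24Rik, with Mir29b-2 and Mir29c, and Egfl7-206, with Mir126a, were lower (−4.32 ± 0.81 and −3.55 ± 0.55). Counting ignored the strand, and the part of the small RNA in the values of its host transcript was not tested.

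SnoRNAs split by where they lie. By the table or the annotation 504 snoRNA features were tested, 133 higher and 70 lower in neurons with a median of +0.64. Of these, 181 lie on the minus strand of chromosome 7 in the span of the imprinted genes Snhg14 and Snrpn (chr7:58957672-59820763, GRCm39), the Prader-Willi domain, where long tandem arrays of C/D box snoRNA genes sit in introns of a transcript made from the paternal chromosome. The grouping by span was made after the values were seen, and a list of the 19 snoRNAs of the domain that carry a Snord name was taken from their names. The sequences below, from GENCODE vM39 on GRCm39 with the C box TGATGA and the D box CTGA in capitals, show Snord107 (chr7:59630624-59630693, minus strand like all of them), Snord64 (chr7:59628556-59628622), 2 copies of the longer kind (chr7:59544368-59544461 and chr7:59513988-59514081) and Gm26284, the most abundant of the shorter copies with a Gm name (chr7:59239296-59239374).
Snord107: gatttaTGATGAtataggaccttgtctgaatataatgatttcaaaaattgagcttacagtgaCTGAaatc
Snord64: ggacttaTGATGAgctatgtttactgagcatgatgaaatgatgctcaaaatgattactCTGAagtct
Snord116l1: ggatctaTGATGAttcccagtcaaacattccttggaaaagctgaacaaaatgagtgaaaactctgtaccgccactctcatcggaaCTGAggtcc
Gm25615: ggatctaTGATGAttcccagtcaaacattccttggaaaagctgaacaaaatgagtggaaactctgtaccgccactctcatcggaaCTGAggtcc
Gm26284: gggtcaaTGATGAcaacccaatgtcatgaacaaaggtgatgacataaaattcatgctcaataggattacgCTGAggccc

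Inside the span 98 of 181 snoRNAs were higher in neurons and none was lower (54.1% called beside 28.0% of all features; edgeR, 144 higher and 0 lower at an unadjusted p under 0.05, and 103 higher and 0 lower by DESeq2), the groups did not overlap for 157, and the median log2 fold change was +1.70. The other snoRNAs gave 35 higher and 70 lower (32.5% called) with a median of −0.22. That lean depended on the scale and on single libraries, with 225 higher and 1 lower on the miRNA scale (median +1.86), 41 higher and 45 lower with library totals, 13 and 42 without microglial replicate 1, 16 and 42 without microglial replicate 3, 38 and 45 without microglial replicate 2, and 33 and 44 without neuronal replicate 1. Summed over the span, the level was 7919, 6484 and 9783 CPM in neurons and 1483, 438 and 1480 CPM in microglia, or 8062 ± 1654 against 1134 ± 602 (7.11-fold). The sum over all other snoRNAs was 281500.0 ± 44500.0 against 278200.0 ± 46630.0 CPM (1.01-fold). The lowest library of all for the span was microglial replicate 2, and without it 76 were higher and none lower. Leaving out another library gave 70 (without neuronal replicate 3) to 145 (without neuronal replicate 2) higher and none lower.

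Snord107 had 241, 89.8 and 102 CPM in neurons and 5.18, 1.75 and 6.25 CPM in microglia (5.00 ± 0.63, adjusted p = 0.000656), and Snord64 had 109, 118 and 150.3 CPM against 38.6, 11.2 and 38 CPM (2.10 ± 0.50, adjusted p = 0.0121). Gm25615, a copy of the longer kind, had 374, 175 and 214 CPM against 9.49, 1.05 and 6.79 CPM (5.43 ± 0.71, adjusted p = 0.000793). Gm26284, of the shorter kind, had 23.5, 17.1 and 35.8 CPM against 14.1, 4.56 and 12.5 CPM and was not called (1.28 ± 0.53, adjusted p = 0.0982). The groups stood apart in each case, and microglial replicate 2 was the lowest library each time. All 19 snoRNAs on the list of the domain were called higher, with a median of 3.43 in the fit of summed genes. That list summed to 1888, 1606 and 2212 CPM of the library total in neurons and 216.9, 44.9 and 228.5 in microglia. The WT astrocyte libraries held 1748, 1091 and 1818 CPM and overlapped the neuronal ones. The difference thus sets microglia apart from both other fractions and is not particular to the neuronal fraction.

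Longer and shorter copies differed in their values, in a split at 85 bases made after the values were seen. All 69 copies longer than 85 bases were called higher, from 2.44 to 5.43 with a median of 3.59, and their sum was 6237, 4983 and 7415 CPM against 655, 141 and 664 CPM (12.8-fold). Among the 112 copies of at most 85 bases 29 were called higher, with a median of 1.33, a count that fell to 2 without neuronal replicate 3 and to 5, 7 and 6 without microglial replicate 1, 2 and 3, and was 76 without neuronal replicate 2. Their sum was 1682, 1500.0 and 2368 CPM against 829, 297 and 816 CPM (2.86-fold). The summed level of the long copies over that of the short ones was thus 3.71, 3.32 and 3.13 in the neuronal libraries and 0.79, 0.474 and 0.814 in the microglial libraries. Copies are not separate measurements, since the 181 features hold 63 distinct sequences and 138 of them share a sequence with another, so their counts divide a common pool of reads. Both boxes, the C box within the first 20 bases and the D box within the last 20 of the transcript strand, were found in 177 of the 181 (97.8%) and in 108 of the other snoRNAs (33.4%).

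**Figure D4:**
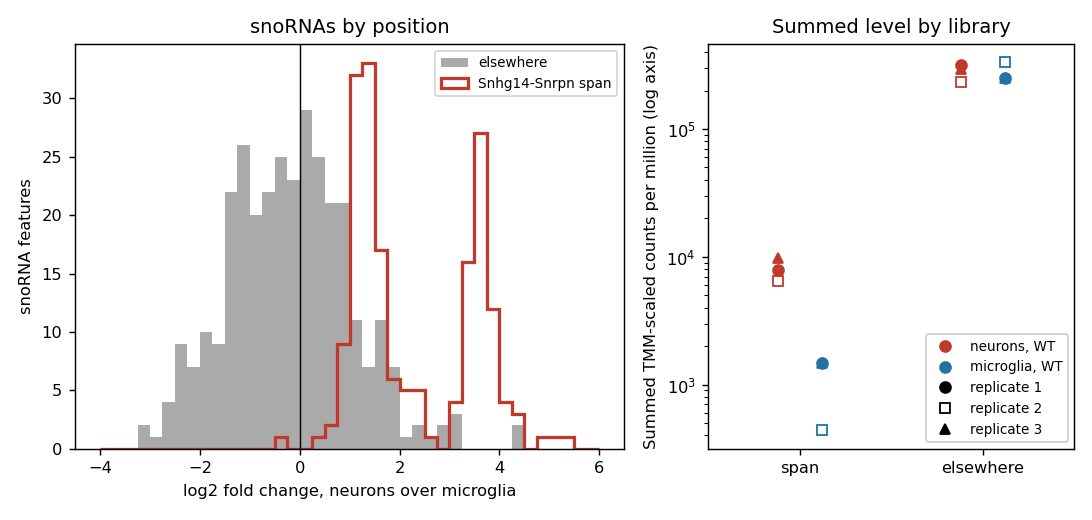
Left, histogram of the log2 fold change, neurons over microglia, for 181 snoRNA features of the Snhg14-Snrpn span and the snoRNAs elsewhere. Right, summed TMM-scaled CPM of each library (log axis). The span shows 2 peaks, around the medians of 1.33 for short and 3.59 for long copies, and its sum is 7.11-fold higher in neurons while the sum elsewhere is 1.01-fold.

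By name, C/D box snoRNAs named Snord had 28 higher and 15 lower of 113 (38.1% called beside 28.0% of all features) with a median of +0.34. That count takes in the Snord genes of the span. H/ACA box snoRNAs named Snora had 1 higher and 14 lower of 40 (37.5% called) with a median of −0.77. Snora23 on chromosome 7 (chr7:109645571-109645754, plus strand) had 5.48, 27.3 and 28.9 CPM against 175, 193 and 148 CPM (−3.04 ± 0.56, adjusted p = 0.00367), and Gm24698 on chromosome 8 (chr8:13926097-13926226) 11, 29.2 and 27.7 CPM against 182, 240.3 and 194 CPM (−3.17 ± 0.46). On the miRNA scale the median of the Snora group turned to +1.33. Snord68, among the most abundant features of both fractions, was not called (32805, 12814 and 17070.0 CPM against 14729, 15306 and 14129 CPM, adjusted p = 0.276), and its host transcript Rpl13-202 had nearly the same counts.

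Among long noncoding RNAs of imprinted and neuronal genes, 2 of 9 tested were higher in neurons (22.2% called beside 26.2% in the fit of summed genes). Snhg14, the host transcript of the arrays, had 203.6, 171 and 266 CPM against 37.4, 7.26 and 35.5 CPM (2.99 ± 0.58, adjusted p = 0.00206). Bc1, a neuronal RNA that acts in dendrites on translation, had 59.1, 1745 and 51.6 CPM against 12.5, 30.6 and 11 CPM (5.11 ± 1.18, adjusted p = 0.00649), and neuronal replicate 2 lay far above the other libraries. Without neuronal replicate 2 there were 4 calls. Rian, of the Dlk1-Dio3 domain, had 493.3, 320.4 and 552 CPM against 303, 60.9 and 282 CPM (adjusted p = 0.158), Meg3 of the same domain 27, 10.7 and 21 CPM against 13.9, 4.84 and 15 CPM (adjusted p = 0.319), and the nuclear RNA Malat1 447, 272 and 407 CPM against 205, 95.9 and 186 CPM (adjusted p = 0.0549). For Rian the groups stood apart although the test did not pass, and microglial replicate 2 was again the lowest.

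Small noncoding RNAs of the cytoplasm and nucleus were measured gene by gene. The 7SL genes Rn7s1 and Rn7s2, which encode the RNA of the signal recognition particle, were both higher, Rn7s1 with 1293, 1749 and 1588 CPM against 597, 617 and 579 CPM (1.37 ± 0.35, adjusted p = 0.0124), and as near-identical copies they divide 1 pool of reads. Rpph1, the RNA of RNase P, had 475, 635 and 817 CPM against 191, 294 and 224 CPM (1.44 ± 0.40, adjusted p = 0.0176), whereas Rmrp, the RNA of the related RNase MRP, had 745, 1177 and 1325 CPM against 1411, 1554 and 1551 CPM (adjusted p = 0.366). The Y RNA Rny1 was called higher (557, 3828 and 764 CPM against 403, 481 and 436 CPM, adjusted p = 0.031), with most of the difference in neuronal replicate 2, and Rny3 was not (312, 1824 and 465 CPM against 408, 523 and 397 CPM, adjusted p = 0.228). Vaultrc5, the RNA of the vault particle, had 3.56, 64.6 and 24 CPM against 255, 164 and 212 CPM and was lower (−2.76 ± 0.71, adjusted p = 0.0124). In all, 4 of 12 such genes were higher and 1 lower (41.7% called beside 26.2% in the fit of summed genes). There were 0 higher when microglial replicate 1 or 3 was left out and 0 lower without neuronal replicate 3. The 7SK RNA Rn7sk, which holds back transcription elongation, and the U7 RNA Rnu7, which processes histone messages, did not pass (adjusted p = 0.632 and 0.98).

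Among snRNA genes of the major spliceosome 4 of 9 were lower in neurons and none higher (edgeR, 0 higher at an unadjusted p under 0.05, 0 by DESeq2). That was 44.4% called, beside 26.2% in the fit of summed genes. Without neuronal replicate 3 no member was called lower, and without neuronal replicate 1 or microglial replicate 2 there were 2. Rnu1b1, a U1 gene, had 232, 441 and 298 CPM against 995, 700.2 and 857 CPM (−1.39 ± 0.40, adjusted p = 0.0205) and shares its reads with Rnu1b2. Rnu2-10, a U2 gene, had 636, 834 and 927 CPM against 1632, 2243 and 1604 CPM (−1.19 ± 0.36, adjusted p = 0.0279), and Rnu5g, a U5 gene, 778, 1793 and 1778 CPM against 3153, 3368 and 2935 CPM (−1.12 ± 0.39, adjusted p = 0.0498). All 4 turned positive on the miRNA scale, with values from 0.66 to 1.02. The processed pseudogenes Gm12895 and Gm12896 on chromosome 4 led the higher members of their class, Gm12895 with 306, 453 and 624 CPM against 49.2, 53 and 61.4 CPM (3.08 ± 0.39, adjusted p = 0.000646).

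Some tRNA isodecoders were called, and their counts rested heavily on single libraries and on the scale. Of 172 isodecoders tested, 27 were lower and 6 higher (19.2% called beside 26.2% in that fit) with a median of −0.65. The miRNA scale gave 3 lower and 84 higher with a median of 1.29, so the direction turned. Without neuronal replicate 2 there were 96 lower and 2 higher with a median of −1.67, and without microglial replicate 2 there were 13 lower and 2 higher with a median of −0.06. Without neuronal replicate 1 there were 17 lower and 18 higher, without neuronal replicate 3 there were 15 lower and 11 higher, and without microglial replicate 1 or 3 there were 40 or 33 lower and 3 or 2 higher. The initiator tRNA-iMet-CAT-3 had 4.98, 32.6 and 13.8 CPM in neurons and 403, 289.8 and 315 CPM in microglia (−4.27 ± 0.61, adjusted p = 0.000329). Its far more abundant relative tRNA-iMet-CAT-1 had 428, 3777 and 1435 CPM against 4291, 8318 and 3297 CPM and did not pass (adjusted p = 0.0921), and its log2 fold change went from −1.50 to 0.47 on the miRNA scale. For tryptophan, 4 of 6 isodecoders were lower, led by tRNA-Trp-CCA-1 at 11.4, 24.6 and 7.21 CPM against 314, 133 and 302 CPM (−4.09 ± 0.58, adjusted p = 0.000306). Next came tRNA-Gly-ACC-1 (−3.78 ± 0.59) and tRNA-Ile-TAT-1 (−3.33 ± 0.68), and these 4 named isodecoders were called in each of the 6 fits without 1 library. The isodecoder with the most reads, tRNA-Glu-CTC-1, had 1887, 9176 and 7096 CPM against 15209.9, 26538 and 14618 CPM (−1.63 ± 0.50, adjusted p = 0.0275). It turned to 0.47 on the miRNA scale.

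On the higher side, tRNA-Ala-AGC-8 had 31.3, 47.4 and 31.8 CPM against 1.16, 3.22 and 1.34 CPM (4.29 ± 0.57, adjusted p = 0.000204), and tRNA-Ala-AGC-3 had 64.1, 486.9 and 97.9 CPM against 18.9, 44.7 and 18.5 CPM (2.99 ± 0.72). The isodecoder tRNA-Arg-TCT-4, chosen after its values were seen because it is the arginine tRNA known for expression in the nervous system, had 3.56, 110.2 and 9.61 CPM against 2.9, 4.84 and 2.69 CPM (3.59 ± 0.98, adjusted p = 0.0162). Replicates 1 and 3 of the neurons lay near the microglial libraries, so that call rests on replicate 2 and held in 3 of 6 fits. The isodecoder tRNA-Arg-TCT-1 with the same anticodon was lower, at 55.5, 371 and 114 CPM against 524, 1363 and 477 CPM (−2.13 ± 0.65, adjusted p = 0.0278). The isodecoder tRNA-Gly-CCC-2 rested on neuronal replicate 2, with 7.12, 679.9 and 9.01 CPM against 14.2, 19.3 and 13.4 CPM, and its log2 fold change went from 3.89 to −0.87 without that library.

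Mitochondrial RNAs divided by kind. Both ribosomal RNAs were higher in neurons, mt-Rnr1 with 1889, 3147 and 2217 CPM against 982, 1118 and 893 CPM (1.28 ± 0.36, adjusted p = 0.020) and mt-Rnr2 with 4252, 6111 and 4218 CPM against 2402, 2464 and 2312 CPM (1.02 ± 0.34, adjusted p = 0.0386), though DESeq2 called neither, and neither was called without microglial replicate 1 or 3. None of the 13 mitochondrial messenger RNAs was called (edgeR, 3 higher and 0 lower at an unadjusted p under 0.05, 0 by DESeq2), with a median of 0.83. Of the 22 mitochondrial tRNA genes 1 was called lower with a median of −0.49, and without neuronal replicate 2 all 22 were called lower with a median of −2.30. The miRNA scale gave 10 higher and none lower with a median of 1.33. In that library the 22 genes summed to 40300.0 CPM of the library total, against 2376 and 5547 in the other neuronal libraries and 14010.0 to 16820.0 in microglia.

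**Figure D5:**
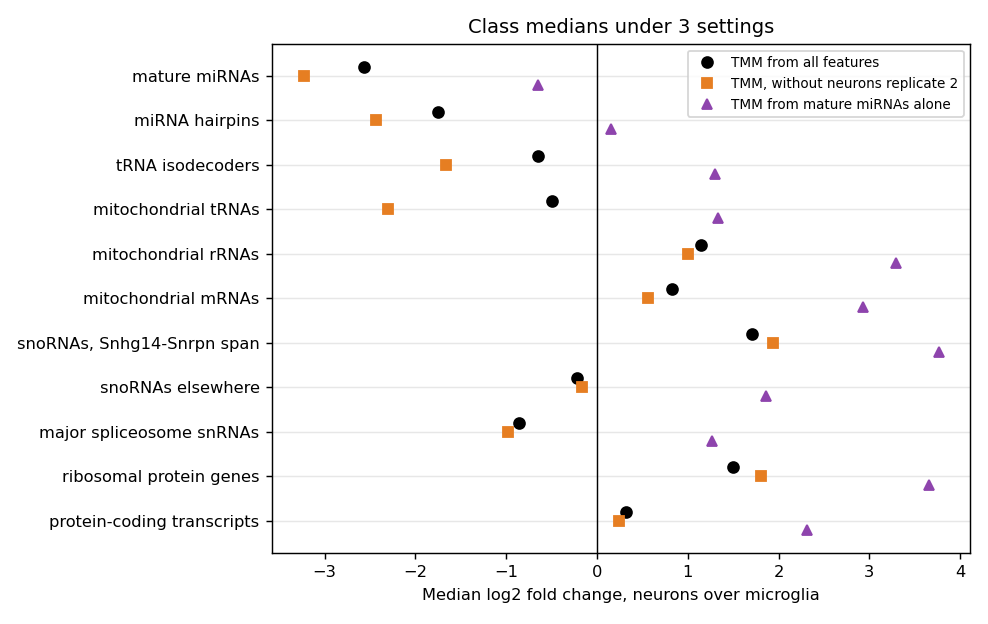
Median log2 fold change, neurons over microglia, of each class with TMM factors from all features, without neuronal replicate 2, and with TMM factors from mature miRNAs alone. Leaving out neuronal replicate 2 moves the mitochondrial tRNAs from −0.49 to −2.30 and the tRNA isodecoders from −0.65 to −1.67, and the miRNA scale moves every class upward.

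Fragments of protein-coding transcripts made up the largest class tested. Of 1632 protein-coding transcripts tested, 306 were higher and 131 lower (26.8% called beside 28.0% of all features) with a median of +0.32. Without microglial replicate 1 there were 148 higher and 81 lower, with 199 and 85 without microglial replicate 3, 191 and 89 without neuronal replicate 1 and 166 and 70 without neuronal replicate 3, while on the miRNA scale there were 935 and 40. The Ttr and Enpp2 transcripts led the rises by the rule for naming (5.54 ± 0.46 and 4.74 ± 0.70), and the largest fall by that rule was of Cd46-203, a transcript of a complement regulator, at 14.1, 178 and 49 CPM against 1361, 1821 and 1829 CPM (−4.36 ± 0.77, adjusted p = 0.0029). This transcript (chr1:194719134-194774561, GRCm39, minus strand) overlaps the end of the A330023F24Rik transcript that holds Mir29b-2 and Mir29c (chr1:194706417-194720212, plus strand), which had 4.7, 66.7 and 11.9 CPM against 470.1, 613 and 612 CPM. Since counting ignored the strand, reads of the pair cannot be told apart, and the part of the miR-29 reads in the value of Cd46-203 was not tested. The libraries were made for small RNA, so these counts stand for short fragments and not for whole messages.

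Of the 79 ribosomal protein genes listed, 72 were tested, 31 higher and 8 lower in neurons (54.2% called beside 26.2% in that fit) with a median of 1.5. DESeq2 called 20 higher and 8 lower, 14 were higher without microglial replicate 1, 5 to 7 were lower without any 1 library, and on the miRNA scale 64 were higher and none lower. The summed level of the list overlapped between the fractions, at 79000.0, 52750.0 and 65030.0 CPM of the library total in neurons and 74520.0, 74990.0 and 72530.0 in microglia. In a split made after the values were seen, the 22 genes with an annotated small RNA in an exon of a tested transcript gave 0 higher and 7 lower with a median of −0.75, and the other 50 gave 31 higher and 1 lower with a median of 1.84. Those 50 include genes such as Rpl11 and Rpl14, of which no single transcript was tested. Whether such genes hold a small RNA was not looked at, so the 50 are not all genes without one. Rps20, which holds Gm24016, had 273, 915 and 1204 CPM against 2975, 4078 and 3022 CPM (−2.07 ± 0.49, adjusted p = 0.00734), and Rpl27a, which hosts Snora3, had 227, 575 and 689 CPM against 1825, 2499 and 1696 CPM (−2.01 ± 0.45, adjusted p = 0.00519). Rpl38, with no such RNA, had 27, 7.44 and 13.2 CPM against 0.87, 2.82 and 0.806 CPM (3.43 ± 0.67, adjusted p = 0.00229), and Rps27 had 31.3, 12.6 and 22.2 CPM against 1.74, 2.02 and 4.03 CPM (3.03 ± 0.56, adjusted p = 0.00154). On the miRNA scale Rps20 and Rpl27a turned slightly positive (0.11 and 0.17). What part of the counts of a host gene were reads of its snoRNA was not tested.

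Antisense and other named long transcripts added a few large differences. Gm20628 on chromosome 3 (chr3:96174391-96177605, minus strand, 1 exon) had 94.8, 122 and 159.7 CPM against 2.88, 6.32 and 5.43 CPM (4.68 ± 0.49, adjusted p = 0.000427), and Gm20634 nearby (chr3:96152870-96155825, plus strand) 55.6, 54.2 and 61.6 CPM against 2.88, 4.56 and 4.07 CPM (3.88 ± 0.45). The WT astrocyte libraries held 1.47 and 0.70 CPM of these on the scale of library totals (means of 3 libraries). Among the 34 antisense transcripts with an annotated small RNA in an exon 12 were higher and 5 lower, and among the 122 without one 11 were higher and 3 lower. The piRNA entries gave 24 higher and 24 lower of 139 (34.5% called beside 28.0% of all features), and 78 higher and 3 lower on the miRNA scale. The most abundant of those named, piR-68681, had 2875, 2736 and 2698 CPM against 13734, 15123 and 12919 CPM (−2.33 ± 0.23, adjusted p = 0.00035), and piR-44760 had 406, 437 and 227 CPM against 58.7, 49.5 and 62.2 CPM (2.65 ± 0.38, adjusted p = 0.00115).

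The same contrast could be read in the KIN mice, whose libraries are separate from the WT ones. With 3 KIN neuronal and 3 KIN microglial libraries, 2584 of 4880 features were called (53.0%), 1305 higher in neurons (26.7%) and 1279 lower (26.2%). Of the 695 features higher in WT neurons, 636 were tested in KIN and 573 were called higher there, which is 82.4% of the WT calls and 43.9% of the KIN calls. Of the 751 lower features, 682 were tested and 623 called lower (83.0% and 48.7%). No feature was called in opposite directions. The log2 fold change of miR-9-3p was 4.66 in WT and 6.45 in KIN, that of miR-146a-5p −6.12 and −6.80, and that of Snord107 5.00 and 6.00. MiR-124-3p, which did not pass in WT, stood at 1.57 in KIN (adjusted p = 0.000286).

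MiR-451a and miR-150-5p were not called in KIN. MiR-451a had 58.8, 35.1 and 35.0 CPM in KIN neurons and 32.9, 132 and 35.4 CPM in KIN microglia, with a log2 fold change of −0.64 (adjusted p = 0.192) in place of 2.82 in WT, and miR-150-5p had 0.70 (adjusted p = 0.0543) in place of 1.72. The haemoglobin genes and other erythroid genes summed to 19.0 to 47.8 CPM of the library total in KIN neurons and 0 to 0.318 in KIN microglia. The difference between the genotypes in these contrasts was not tested.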

How the data were processed

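The authors deposited 1 table of raw read counts per feature, whole numbers that had not been normalized. Per the study's methods and the submitters' processing notes, reads were trimmed with cutadapt 4.6, checked with FastQC 0.11.9 and MultiQC 1.23, aligned with Bowtie2 2.4.4 in successive rounds to miRNAs, tRNAs, piRNAs and Ensembl transcripts, and counted with HTSeq 2.0.2 without regard to strand. Copies of a gene therefore divide or share reads. Adapters carried molecular identifiers, but whether these were collapsed for the small RNA libraries is not given in the sources used here, so counts may be PCR reads and not molecules. Columns with the authors' own fold changes and p-values were not used, nor were 36 other columns of per-library values.

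Features for which 2 or more of the 6 WT libraries held 5 or more counts were tested with edgeR 4.0.16 (quasi-likelihood test, TMM factors, R 4.3.3, limma 3.58.1). Adjusted p-values are Benjamini-Hochberg values, and DESeq2 1.42.0 was an alternative. Transcripts were also summed into genes and tRNA gene copies into isodecoders. Where no library of a group exceeded 3 counts, the fold was given as a bound. Annotation came from GENCODE vM39 (GRCm39), with 145452 of 146263 Ensembl features matched. The members and lists were chosen with earlier results of these data known.

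Named were called features whose groups did not overlap. For mature miRNAs these were the 8 with the largest change in each direction at a mean of at least 50 CPM, for other types the 2 largest at a mean of at least 20 CPM, for isodecoders the 4 largest, and in addition members of the lists and the 3 most abundant features.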

Additional observations from a re-analysis of the deposited data

How the results depend on the processing

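Calls of single features numbered 1446, and 1376 with DESeq2, 1339 with library totals, 1277 with no filter, 1020 with 10 or more counts in 3 or more libraries and 1923 in 1 fit of all 18 libraries. Leaving out 1 library gave 867 (without microglial replicate 1) to 1683 (without neuronal replicate 2), with 948 without microglial replicate 3 and 957 without neuronal replicate 3. Leaving out both libraries of a number gave 730 without replicate 1, 1723 without replicate 2 and 0 without replicate 3 (edgeR, 1242 at an unadjusted p of at most 0.05, smallest adjusted p 0.0641; DESeq2 was not run there). For summed genes and isodecoders, 1529 calls became 1128 to 1642 without 1 library, 872 without replicate 1 and 746 without replicate 3. Shares without overlap went from 11 to 17 without neuronal replicate 2, and other single libraries left out gave 11 to 13. KIN calls (2584) ranged from 2120 to 2675 without 1 library, and with library totals 63.6% of 2592 were higher in place of 50.5%.

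With TMM factors from the mature miRNAs alone, 3079 features (92.7% higher, against 48.1%) and 3537 genes and isodecoders were called. Log2 fold changes that turned positive there were 0.42 for the BC018473 transcript, 0.58 for Gm22265, 1.51 for Pecam1, 1.71 for Rmrp, 1.84 for Rn7sk, 0.69 for Rnu1b1, 0.66 for Rnu1b2, 1.02 for Rnu2-10, 1.02 for Rnu5g, 0.44 for the single Rnu5g transcript, 0.17 for Rpl27a and 0.11 for Rps20. The same held for let-7b-5p (1.69), let-7c-5p (1.21), miR-125b-5p (1.21), miR-181a-5p (0.67), miR-181b-5p (1.14), miR-30c-5p (0.25), miR-99b-5p (0.025) and tRNA-Glu-CTC-1 (0.47). tRNA-Gly-CCC-2 turned to −0.87 without neuronal replicate 2, reached 4.50 without neuronal replicate 1, and was −0.69 without replicate 2. These causes were not tested. Of 2879 alternative values for 193 named features and lists, 2403 kept their direction and call, or moved by less than the replicate spread where there was no test, 213 lost the call, 35 gained one and 206 moved.

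With the replicate number as a block, 1571 features and 1592 genes and isodecoders were called. Whether the numbers pair the libraries is not established, since deviations of same-numbered libraries correlated at 0.25, 0.31 and 0.01 over 1297 features and neuronal replicate 1 correlated best with microglial replicate 3 (0.38). The neuronal libraries held at most 37782 mature miRNA counts, which limits what can be said of scarce miRNAs.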
